A study of Arabidopsis thaliana with 9 samples.

Results

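The 8 genes described here encode phosphate transporters of Arabidopsis thaliana: 6 members of the PHT1 family, PHO1 and its homologue PHO1;H1. They were taken by locus identifier, 8 of the 24140 genes listed in any of 9 root RNA-seq libraries. Roots came from seedlings grown for 9 days on 1/2 MS medium, with 3 libraries for each of 3 genotypes. The first genotype was wild type (WT). The second was 35S:ERF13:MYC, a line that overexpresses MYC-tagged ERF13, an ethylene response factor, from the 35S promoter, which is active in most plant tissues. The third was erf13-3 by its titles and an SRDX line of ERF13 by its genotype label, SRDX being a short repression domain that is fused to transcription factors. How many independent lines stand behind either genotype is not given. Nor is it said whether replicate libraries came from separate plants, so that a p-value reflects only how far these libraries scatter, and that scatter may be technical.

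The PHT1 genes were PHT1;1 (AT5G43350), PHT1;2 (AT5G43370), PHT1;4 (AT2G38940), PHT1;5 (AT2G32830), PHT1;8 (AT1G20860) and PHT1;9 (AT1G76430). PHO1 is AT3G23430 and PHO1;H1 is AT1G68740. In RefSeq TAIR10.1 they lie on 4 chromosomes. AT5G43350 spans chr5:17399769-17402158 and AT5G43370 spans chr5:17415698-17417972. AT2G38940 lies at chr2:16257157-16260253 and AT2G32830 at chr2:13927606-13929763. AT1G20860 lies at chr1:7253998-7258952, AT1G76430 at chr1:28678935-28682062 and AT1G68740 at chr1:25812449-25816983. PHO1 spans chr3:8387398-8393467.

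PHT1 proteins are proton-coupled symporters of the plasma membrane that take inorganic phosphate up from the soil into root epidermis and root hairs and move it between cells. PHO1 is an exporter in the root stele that releases phosphate towards the xylem and so towards the shoot. Transcripts of many PHT1 genes rise when phosphate is scarce, through the transcription factor PHR1, which binds a short palindrome called P1BS, and transporter proteins are removed with the help of the ubiquitin-conjugating enzyme PHO2 and the ubiquitin ligase NLA.

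Each library held 12147128 to 12324144 expected counts (the authors' estimated reads per gene). FPKM, the authors' count per length of transcript, scaled to the size of the library, is used for levels and is the scale on which levels of different genes are set side by side. ERF13 transcript ran from 0.96 to 1.25 FPKM in WT, from 773 to 905 in 35S:ERF13:MYC and from 2595 to 3043 in the libraries labelled erf13-3, so the last group did not lack the transcript and its values below are those of the libraries so labelled. Root markers were present in every library: the 9 root hair genes summed to 272 FPKM or more and the 7 stele and pericycle genes to 96.3 or more. Genes of green tissue were detected too. Their 8 markers summed to 323 to 366 FPKM in WT, 122 to 198 in 35S:ERF13:MYC and 699 to 801 in erf13-3. In such bulk RNA, fewer cells of a type and less RNA per cell cannot be told apart.

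WT replicate 3 stood apart from the other WT libraries, in phosphate genes among others. Of 18295 genes with a mean of at least 1 FPKM in WT, 91 (0.497%) were at least 2-fold higher in replicate 3 than in both other WT libraries, against 17 for replicate 1 and 15 for replicate 2. A larger number, 156, were at least 2-fold lower there than in both others, against 33 for replicate 1 and 43 for replicate 2. The 91 held 5 of the 7 transporter genes that reach that mean. PHT1;5 was 10.8-fold and PHT1;2 was 7.59-fold higher in replicate 3 than the mean of replicates 1 and 2. The ratio was 3.77 for AT1G76430 (PHT1;9) and 3.36 for AT1G20860 (PHT1;8), and it was 2.69 for PHT1;4 and 2.06 for PHT1;1. It was 0.885 for PHO1 and 1.09 for its homologue AT1G68740. Among 15 genes of phosphate scavenging and lipid remodelling 9 were in the 91, as were 4 of 15 regulators of transporters, and none of 9 root hair, 7 stele or 8 green tissue markers was. Each edgeR comparison of the 8 genes with WT is therefore given with and without this library, and those of other genes only in part. The authors' ratios use all WT libraries. Because high PHT1 values helped to set this library apart, p-values without it are no independent test for the PHT1 genes.

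**Figure D1:**
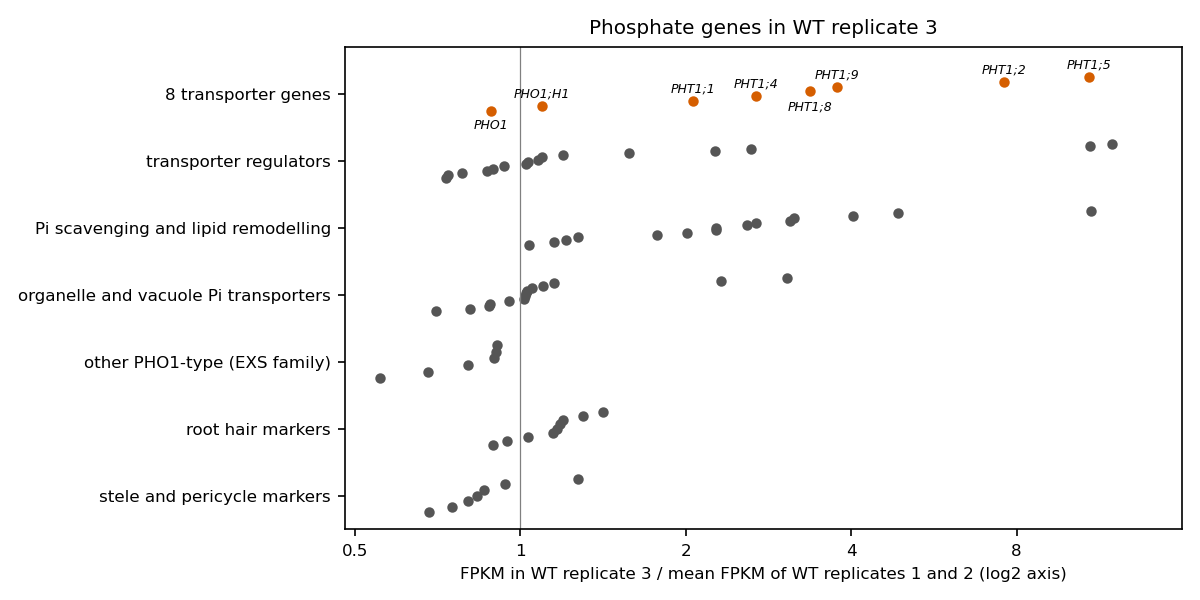
Ratio of FPKM in WT replicate 3 to the mean of WT replicates 1 and 2 (log2 axis), 1 point per gene with a mean WT level of at least 0.5 FPKM, by gene list. The 6 PHT1 genes lie between 2.06 and 10.8, while PHO1 (0.885) and its homologue (1.09) lie beside 1, and the root hair and stele markers run from 0.682 to 1.41.

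Sequence bears on how far these genes can be told apart in short reads. PHT1;1 (AT5G43350, minus strand) and PHT1;2 (AT5G43370, plus strand) lie in a cluster with PHT1;3 (AT5G43360) and PHT1;6 (AT5G43340). Their coding sequences of 1575 bases each were 97.7% identical, and 41.9% of the 50-base words of the AT5G43350 transcript also occurred in that of AT5G43370. The first 75 coding bases of the 3 closest copies are shown to make this visible, with capitals at bases that differ from AT5G43350 (itself at chr5:17401569-17401643, minus strand, with AT5G43370 at chr5:17416074-17416148, plus strand, and AT5G43360 at chr5:17409524-17409598, plus strand).
AT5G43350: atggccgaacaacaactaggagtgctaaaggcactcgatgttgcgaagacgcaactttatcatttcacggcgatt
AT5G43370: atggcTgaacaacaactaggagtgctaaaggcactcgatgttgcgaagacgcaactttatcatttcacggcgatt
AT5G43360: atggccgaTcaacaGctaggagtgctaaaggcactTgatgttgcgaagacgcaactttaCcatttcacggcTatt
AT5G43370 differed from AT5G43350 at 1 of these 75 bases and AT5G43360 at 5. It is not stated how the authors' counting treated reads that match both of the closest copies. Both had fractional expected counts in every WT library, 4044.59 and 13.41 in WT replicate 1, so such reads were shared out by estimate. The low values of PHT1;2 are therefore uncertain beside the high ones of PHT1;1. Other pairs were further apart. AT1G20860 and AT1G76430 were 79.0% identical over aligned coding bases, AT5G43350 and AT2G38940 were 71.7%, and PHO1 and AT1G68740 were 63.6%, with no shared 50-base word in any of these 3 pairs.

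The 1000 bases upstream of each annotated gene start were searched on both strands for P1BS, spelled GNATATNC, which reads the same on both strands. It was found in 4 of the 8 genes, all PHT1 genes, and 20.3% of 27443 upstream regions of protein-coding genes held it. PHT1;1 and PHT1;2 had 2 matches each, while 2.78% of all regions had 2 or more. PHT1;5 and PHT1;8 had 1 each. AT2G38940, AT1G76430, PHO1 and AT1G68740 had none in this window. The matches are shown with 26 bases on each side, since they are the letters by which these PHT1 upstream regions differ from those of PHO1 and its homologue in this search, read along the strand of the gene, with the motif in capitals. They lie at chr5:17402911-17402970 and chr5:17402893-17402952 (minus strand, AT5G43350), chr5:17415103-17415162 and chr5:17415630-17415689 (plus strand, AT5G43370), chr2:13930205-13930264 (minus strand, AT2G32830) and chr1:7259395-7259454 (minus strand, AT1G20860).
AT5G43350, bases 786 to 779 before the start: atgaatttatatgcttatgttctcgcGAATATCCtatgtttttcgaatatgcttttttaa
AT5G43350, bases 768 to 761 before the start: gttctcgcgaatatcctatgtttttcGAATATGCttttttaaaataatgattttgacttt
AT5G43370, bases 569 to 562 before the start: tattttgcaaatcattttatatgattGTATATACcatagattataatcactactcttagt
AT5G43370, bases 42 to 35 before the start: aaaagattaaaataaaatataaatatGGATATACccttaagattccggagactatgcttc
AT2G32830, bases 475 to 468 before the start: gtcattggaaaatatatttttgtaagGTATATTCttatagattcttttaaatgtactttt
AT1G20860, bases 476 to 469 before the start: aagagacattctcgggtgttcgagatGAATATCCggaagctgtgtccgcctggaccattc
The W-box, the element bound by WRKY factors, was searched as TTGACC and TTGACT, and no match shared a base with a P1BS match. In either form it was present upstream of 6 of the 8 genes and of 67.3% of all genes. The GCC box, spelled GCCGCC, to which many ethylene response factors bind, was present in 0 of the 8 regions and in 8.44% of all. A match is a string of letters and not a shown binding site.

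**Figure D2:**
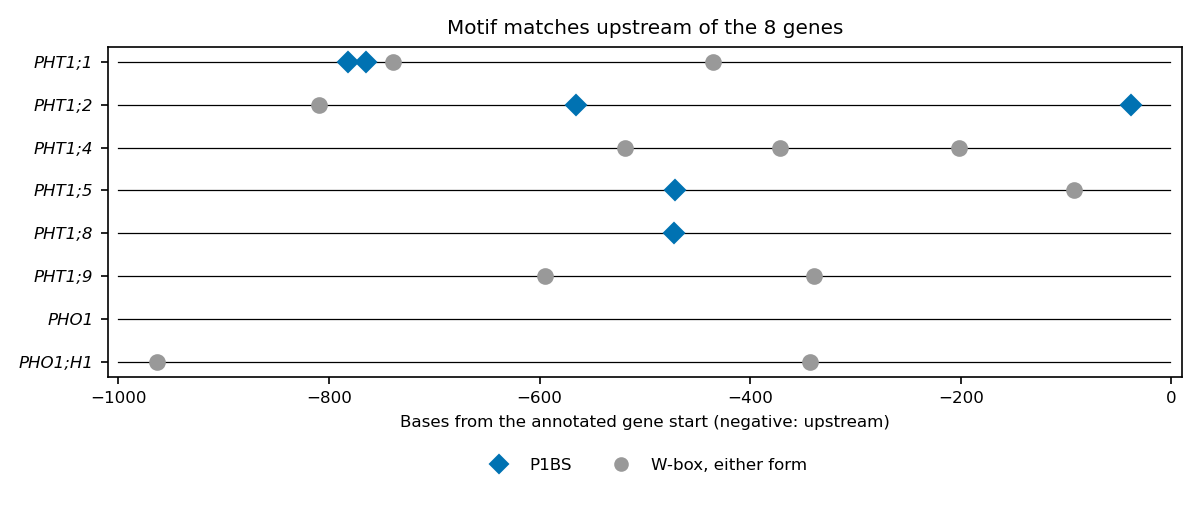
Positions of P1BS (diamonds) and W-box (circles) matches in the 1000 bases upstream of the annotated start of each of the 8 genes, in bases from the start. P1BS matches stand at 4 PHT1 genes, AT1G20860 (PHT1;8) and PHO1 have no W-box match, and PHO1 has a match of neither kind.

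The 8 genes spanned a wide range of levels. In WT the order by mean FPKM was PHT1;1 (221 ± 100, SD, n = 3), PHO1 (174 ± 12), PHT1;4 (80.1 ± 50.1), PHO1;H1 (15.02 ± 0.848), PHT1;5 (2.39 ± 3.18), PHT1;8 (2.21 ± 1.68), PHT1;2 (1.49 ± 1.78) and PHT1;9 (0.673 ± 0.577). The first pair exchanged places between WT libraries, and the last 4 genes overlapped one another. In 35S:ERF13:MYC the order of the leading genes was PHO1 (207 ± 3.56), AT5G43350 (84.3 ± 7.33), AT2G38940 (41.2 ± 8.30) and AT1G68740 (14.2 ± 0.569), with no overlap between neighbours. In erf13-3 it was AT5G43350 (341 ± 65.5), PHO1 (83.4 ± 7.31), AT2G38940 (73.7 ± 8.02) and AT1G68740 (9.34 ± 1.69), where PHO1 and AT2G38940 overlapped. PHT1;3, PHT1;6 and PHT1;7, the other genes of the family, were at or near 0 in all libraries and none entered the test.

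**Figure D3:**
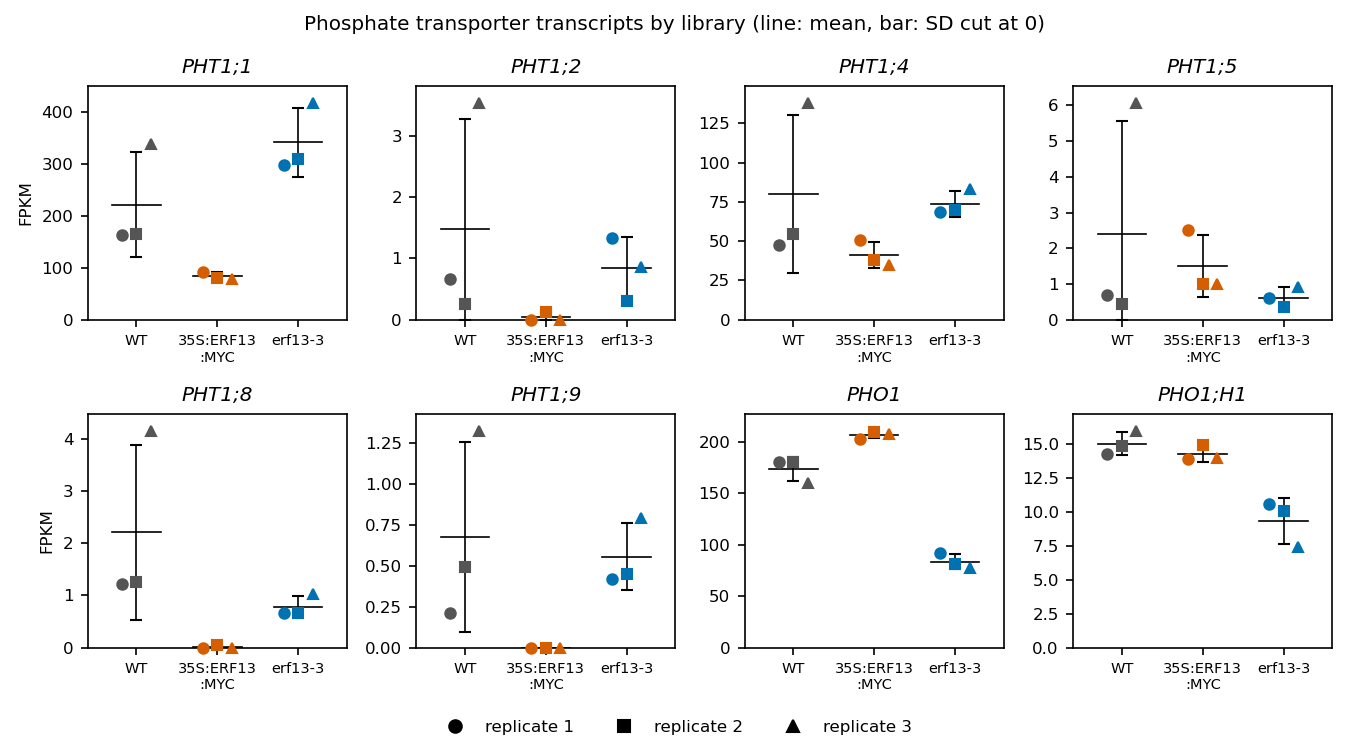
FPKM of the 8 genes in each of the 9 libraries (circles, squares and triangles are replicates 1, 2 and 3), with the mean of each genotype as a line and its SD as a bar cut at 0. The triangle of WT stands above the other WT points in all 6 PHT1 panels, and the PHO1 panel shows 3 groups that do not overlap, from 77.4 to 91.6 in erf13-3 up to 203 to 210 in 35S:ERF13:MYC.

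The first comparison asked what overexpression of ERF13 does to the transcripts of these transporters. Against WT, 5 of 6 PHT1 genes were lower in the overexpressing line, AT1G20860 (PHT1;8) and AT1G76430 (PHT1;9) being close to undetected, and neither PHO1 nor its homologue was called. Of all 19714 genes in the test, 31.5% were called at an adjusted p under 0.05 in edgeR's quasi-likelihood test, 13.8% higher and 17.7% lower. Of the 8 transporter genes 0 were higher and 5 lower, with a median log2 fold change of -1.31 against 0.02 over all genes. Without WT replicate 3 the lower ones were 4, with a median of -0.73, and of all genes 9.64% were higher and 15.8% lower. PHT1;9 and PHT1;2 passed the low count filter in the fit of all 9 libraries but not when only these genotypes were fitted. Of the 6 transporter genes then tested 3 were called, against 30.6% of all genes.

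PHT1;1 and PHT1;4 carry most phosphate uptake of Arabidopsis roots. The first stood at 162, 165 and 337 FPKM in WT and at 92.7, 81.1 and 79.1 in 35S:ERF13:MYC. All 3 libraries of the line were below all 3 of WT, and the log2 fold change was -1.53 (SE 0.28, adjusted p = 0.0015 by edgeR). It was -1.05 without WT replicate 3 (adjusted p = 0.00014). AT2G38940 (PHT1;4) stood at 47.7, 54.8 and 138 FPKM in WT and at 50.7, 38.2 and 34.9 in the line. Here the groups overlapped, since replicate 1 of the line was above WT replicate 1. Its log2 fold change of -1.10 (SE 0.35, adjusted p = 0.032) became -0.41 without WT replicate 3 and was then not called (adjusted p = 0.067 by edgeR). The call was also lost without replicate 2 (-1.04, adjusted p = 0.10) or replicate 3 (-0.98, adjusted p = 0.11) of the line.

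The next pair of genes encodes root transporters known to act downstream of PHO2, and both were nearly undetected in the line. AT1G20860 (PHT1;8) had 24, 29 and 87 counts in the WT libraries and 0, 1 and 0 in those of 35S:ERF13:MYC. The WT level was thus 150 times that of the line by summed counts scaled to library size (95% interval 26.5 to 5970, for counting error only), and 82.9 times (14.3 to 3336) without WT replicate 3. The adjusted p was 0.00032 by edgeR, and 2e-05 without that library. AT1G76430 (PHT1;9) had 5, 12 and 32 counts in WT and none in any library of the line. It was at least 6.02-fold lower in the line against a floor of 3 counts per library, and at least 2.97-fold lower without WT replicate 3 (adjusted p = 0.0061 with and 0.0044 without that library, by edgeR). For both genes every WT library was above every library of the line.

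AT5G43370 (PHT1;2), the near copy of AT5G43350, had 13.4, 5.56 and 73.6 expected counts in WT and 0, 2.30 and 0 in the line. The ratio of WT to the line was 49.8 (95% interval 13.4 to 418) on 2 counts, and 14.9 (3.59 to 132) without WT replicate 3, with adjusted p of 0.012 and 0.022 by edgeR. Both intervals leave out the error in sharing reads with AT5G43350. PHT1;5, known for moving phosphate between source and sink organs, was the PHT1 gene that was not called. It stood at 0.69, 0.43 and 6.06 FPKM in WT and at 2.50, 1.00 and 0.99 in the line. The line's libraries were above WT replicates 1 and 2 and below WT replicate 3, so the log2 fold change was -0.82 (SE 0.78, adjusted p = 0.45) with that library and 1.33 without it (adjusted p = 0.071 by edgeR).

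PHO1 stood at 181, 180 and 160 FPKM in WT and at 203, 210 and 207 in 35S:ERF13:MYC. All libraries of the line were above those of WT in FPKM, but the log2 fold change of 0.14 (SE 0.073, adjusted p = 0.16 by edgeR) was not called, nor was that of 0.10 without WT replicate 3 (adjusted p = 0.36). PHO1;H1, the closest homologue of PHO1, stood at 14.3, 14.9 and 15.9 FPKM in WT and at 13.9, 14.9 and 13.9 in the line. The groups overlapped, and the log2 fold change was -0.19 (SE 0.11, adjusted p = 0.21 by edgeR), or -0.12 without WT replicate 3 (adjusted p = 0.46). In FPKM 4 of the 8 genes were lower than WT without overlap, 1 was higher and 3 overlapped, where 50.8% of all tested genes had no overlap, 32.8% higher and 18.0% lower. The authors' deposited table for this line lists 3 of the 8 genes, with log2 ratios of -1.39 for AT5G43350, -4.99 for AT5G43370 and -6.56 for AT1G20860.

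**Figure D4:**
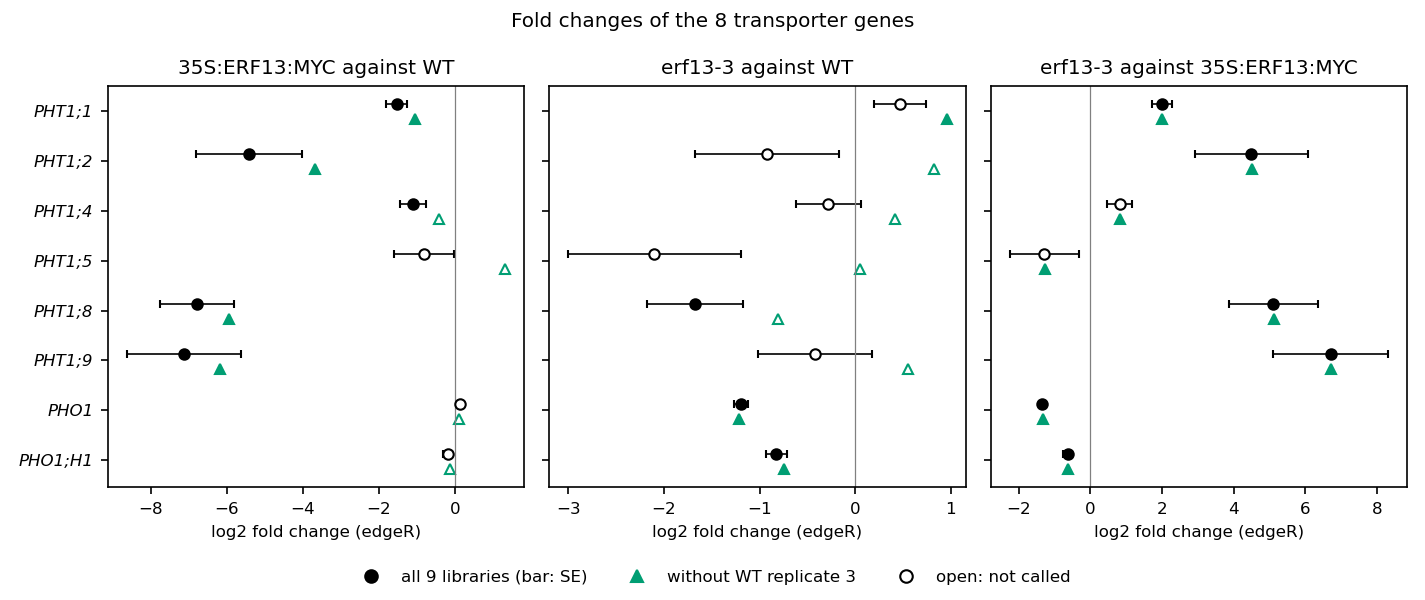
Log2 fold changes of the 8 genes in the 3 comparisons, from the edgeR fit of all 9 libraries (circles, bars are SE) and without WT replicate 3 (triangles), filled where the adjusted p was under 0.05. Both PHO1 genes lie left of 0 in both comparisons of erf13-3 with and without the library, while the circle and triangle of AT2G32830 (PHT1;5) lie on opposite sides of 0 for both lines against WT.

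The second comparison asked how the libraries labelled erf13-3 differ from WT. Both PHO1 genes were lower, and AT1G20860 (PHT1;8) was lower with all WT libraries. PHT1;1 was not called with all libraries. It was called higher only without WT replicate 3, a library set apart partly by its high PHT1 values. In this comparison 27.3% of the tested genes were called, 13.6% as higher and 13.7% as lower. Of the 8 transporter genes 0 were higher and 3 lower. The median log2 fold change of the 8 was -0.87, against 0.02 over all genes. Without WT replicate 3, 1 was higher and 2 were lower, with a median of 0.24, against 14.0% and 13.4% of all genes.

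PHO1 stood at 91.6, 81.3 and 77.4 FPKM in erf13-3 against 181, 180 and 160 in WT. The highest library of the line was well below the lowest of WT, and the log2 fold change was -1.19 (SE 0.074, adjusted p = 5.7e-07 by edgeR), or -1.22 without WT replicate 3 (adjusted p = 1.8e-07). PHO1;H1 stood at 10.6, 10.1 and 7.41 FPKM in erf13-3 against 14.3, 14.9 and 15.9 in WT. These groups did not overlap either, and the log2 fold change was -0.82 (SE 0.11, adjusted p = 0.00019 by edgeR), or -0.74 without that library (adjusted p = 0.00029). Both genes were thus lower in 3 of 3 libraries, and WT replicate 3 changed neither call. They and AT1G20860 were the 3 of 8 genes without overlap in this comparison, all lower, where 44.5% of all tested genes had no overlap, 32.4% higher and 12.1% lower.

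PHT1;1 stood at 297, 310 and 416 FPKM in erf13-3. These libraries were all above WT replicates 1 and 2 at 162 and 165 FPKM, and WT replicate 3 at 337 lay among them. The log2 fold change was 0.47 (SE 0.27, adjusted p = 0.23) with all libraries and 0.96 (adjusted p = 0.00032 by edgeR) without WT replicate 3. AT2G38940 (PHT1;4) stood at 68.5, 69.8 and 83.0 FPKM in erf13-3, again between WT replicates 1 and 2 and WT replicate 3. Its log2 fold change was -0.28 (SE 0.34, adjusted p = 0.59) with that library and 0.42 (adjusted p = 0.056 by edgeR) without it.

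PHT1;8 had 13, 15 and 20 counts in erf13-3 against 24, 29 and 87 in WT. All libraries of the line were lower than those of WT, and the log2 fold change was -1.68 (SE 0.50, adjusted p = 0.026). Without WT replicate 3 it was -0.81 and not called (adjusted p = 0.078 by edgeR), and the call was also lost without replicate 1 (-1.53, adjusted p = 0.093) or replicate 2 (-1.61, adjusted p = 0.078) of the line. Each limma fit lost the call as well, so that it held in 12 of 18 alternatives. AT1G76430 had 10, 11 and 19 counts in erf13-3, within the WT range, and its log2 fold change was -0.42 (SE 0.60, adjusted p = 0.65 by edgeR), or 0.56 without WT replicate 3 (adjusted p = 0.45). AT5G43370 had 27.5, 7.21 and 19.7 expected counts, also within the WT range, and its log2 fold change was -0.92 (SE 0.75, adjusted p = 0.41 by edgeR), or 0.83 without WT replicate 3 (adjusted p = 0.31). AT2G32830 (PHT1;5) had 14, 8 and 21 counts against 16, 10 and 141 in WT. Its log2 fold change of -2.10 (SE 0.90, adjusted p = 0.11 by edgeR) came with WT replicate 3, and without that library it was 0.05, while it passed the threshold without WT replicate 1 (-2.56, adjusted p = 0.048) or WT replicate 2 (-2.61, adjusted p = 0.042). The authors' deposited table for erf13-3 lists 3 of the 8 genes, with log2 ratios of -1.94 for AT2G32830, -1.50 for AT1G20860 and -1.06 for PHO1.

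The third comparison set the lines against each other, so that the direct difference between their responses draws on the WT libraries only through the shared filter, scaling and estimate of spread. All 8 genes were without overlap in FPKM between the lines, 5 higher and 3 lower in erf13-3, against 53.0% of all tested genes, 30.0% higher and 23.0% lower. The test called 38.7% of all genes, 21.1% as higher in erf13-3 than in 35S:ERF13:MYC and 17.6% as lower, and 4 of the 8 transporter genes were called higher and 2 lower. The median log2 difference of the 8 was 1.41, against -0.02 over all genes.

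In erf13-3 PHT1;1 was higher by 2.00 on the log2 scale (SE 0.28, adjusted p = 0.00012 by edgeR), from 79.1 to 92.7 FPKM in 35S:ERF13:MYC to 297 to 416 in erf13-3. AT1G20860 (PHT1;8) had 48 counts in erf13-3 against 1, a ratio of 47.3 (95% interval 8.09 to 1906, adjusted p = 0.0061 by edgeR), and the call was lost with limma on log2(FPKM + 1) and no filter (adjusted p = 0.063). AT1G76430 had 40 counts against 0 and was at least 4.43-fold higher (adjusted p = 0.0076 by edgeR). AT5G43370 had a ratio of 26.6 (7.01 to 225, leaving out error in sharing reads with AT5G43350) on 2 counts, with an adjusted p of 0.040 by edgeR. That call was lost without replicate 1 (adjusted p = 0.10), replicate 2 (0.078) or replicate 3 (0.11) of 35S:ERF13:MYC and without replicate 1 (0.11) or replicate 3 (0.079) of erf13-3. It was also lost with limma on log2(FPKM + 1), with or without a filter (adjusted p up to 0.20). When only the lines were fitted, AT5G43370 did not pass the low count filter and was not tested. PHO1 was lower in erf13-3, at -1.34 on the log2 scale (SE 0.074, adjusted p = 7.8e-08 by edgeR), and so was its homologue AT1G68740, at -0.64 (SE 0.11, adjusted p = 0.00073 by edgeR).

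PHT1;4 and PHT1;5 did not pass the threshold in the fit of all 9 libraries. The former ran from 68.5 to 83.0 FPKM in erf13-3 and from 34.9 to 50.7 in 35S:ERF13:MYC, with a log2 difference of 0.82 (SE 0.35, adjusted p = 0.083 by edgeR). The latter ran from 0.35 to 0.91 FPKM in erf13-3 and from 0.99 to 2.50 in 35S:ERF13:MYC, with a log2 difference of -1.28 (SE 0.96, adjusted p = 0.31 by edgeR). With WT replicate 3 left out of the shared estimate of spread both were called, AT2G38940 at 0.83 (adjusted p = 0.00026) and AT2G32830 at -1.27 (adjusted p = 0.029 by edgeR), and 5 of the 8 were then higher and 3 lower, against 24.0% and 19.7% of all genes. Both were also called when only the lines were fitted (adjusted p = 0.00079 and 0.045 by edgeR), and AT2G38940 without WT replicate 1 (adjusted p = 0.046).

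The make-up of the PHT1 transcripts differed as well, as a description with no test. Summed over the PHT1 family, FPKM was 213, 223 and 490 in WT, 146, 120 and 115 in 35S:ERF13:MYC and 368, 381 and 503 in erf13-3. PHT1;1 made up 76.2%, 74.3% and 68.8% of that sum in WT (73.1% ± 3.86, SD, n = 3). Its share was 63.6%, 67.3% and 68.8% in 35S:ERF13:MYC (66.6% ± 2.69) and 80.6%, 81.2% and 82.8% in erf13-3 (81.5% ± 1.13). The erf13-3 shares lay above all others, and the share of WT replicate 3 was the same as that of the highest 35S:ERF13:MYC library to 3 digits. PHT1;4 made up nearly all of the rest, with 25.1% ± 2.87 in WT, 32.3% ± 2.24 in 35S:ERF13:MYC and 17.8% ± 1.13 in erf13-3.

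Uptake and export genes also stood in different proportion. The ratio of AT5G43350 (PHT1;1) to PHO1 in FPKM was 0.897, 0.917 and 2.11 in the WT libraries. It was 0.457, 0.387 and 0.381 in 35S:ERF13:MYC and 3.24, 3.81 and 5.37 in erf13-3. The 3 genotypes did not overlap in this ratio, with or without WT replicate 3.

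Markers of the cell types in which these transporters are known to act moved between the groups too. Of all genes, 13.8% were called higher and 17.7% lower in 35S:ERF13:MYC, and 13.6% and 13.7% in erf13-3. Between the lines 21.1% were called higher in erf13-3 and 17.6% lower. The lists were not tested as sets. The 9 root hair markers summed to 375 to 451 FPKM in WT, 272 to 291 in 35S:ERF13:MYC and 464 to 701 in erf13-3. Of the 9, 0 were higher and 7 lower in 35S:ERF13:MYC than in WT, with PRP1 at a log2 fold change of -1.16, RSL4 at -0.55 and COBL9 at -0.62. In erf13-3 RSL4 was called against WT, higher at 0.86. PRP1 (0.37) and PRP3 (0.48) were not called (adjusted p = 0.11 and 0.057 by edgeR). They passed the threshold with the replicate number as a block, a pairing that the labels do not give (adjusted p = 0.026 and 0.016 by edgeR). Between the lines 8 were higher in erf13-3 than in 35S:ERF13:MYC. Without WT replicate 3, 5 were lower in 35S:ERF13:MYC and 3 higher in erf13-3, against 15.8% and 14.0% of all genes. The 7 stele and pericycle markers summed to 96.3 to 117 FPKM in WT, 120 to 134 in 35S:ERF13:MYC and 112 to 146 in erf13-3. The boron exporter gene BOR1 and the zinc exporter gene HMA2 were higher in 35S:ERF13:MYC (0.56 and 1.28) and lower in erf13-3 (-1.12 and -1.10), where APL was lower as well (-0.42) and 2 other stele markers were higher. Of the 8 green tissue markers 7 were lower in 35S:ERF13:MYC, with RBCS1A at -2.02, and 8 higher in erf13-3, with LHCB2.1 at 1.81. Of 3 further root markers, CASP1, of the endodermis, was lower in 35S:ERF13:MYC (-1.02), and in erf13-3 its log2 fold change of 0.33 was not called (adjusted p = 0.12 by edgeR), but it was called with the block (adjusted p = 0.033) and without WT replicate 3 (0.50, adjusted p = 0.0052). The aquaporin gene TIP2;3 was lower in both lines (-1.49 in 35S:ERF13:MYC and -1.64 in erf13-3), and the glucosidase gene PYK10 was lower in erf13-3 (-0.76). The part of any of these cell types in the transporter values was not tested.

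The other PHO1-type genes, which carry the same EXS domain, gave a mixed picture. Of 7 tested, 3 were higher and 1 lower in 35S:ERF13:MYC, against 13.8% and 17.7% of all genes. Without WT replicate 3 they were 2 and 1, against 9.64% and 15.8%. In erf13-3, 1 was higher and 3 lower, with or without that library. Of all genes 13.6% and 13.7% were called there, or 14.0% and 13.4% without it. PHO1;H3 stood at 10.3 ± 0.735 FPKM (SD, n = 3) in WT and 17 ± 0.647 in 35S:ERF13:MYC, where it was higher by 0.61 on the log2 scale (adjusted p = 0.00017 by edgeR). AT2G03240, annotated as an EXS family protein, was higher in 35S:ERF13:MYC (0.67) and lower in erf13-3 (-0.55). AT1G69480, annotated likewise, was lower in both lines, at -2.28 in 35S:ERF13:MYC and -0.80 in erf13-3. SHB1, a regulator of seed size and hypocotyl growth with the same domain, was higher in erf13-3 at 1.46, or 1.20 without WT replicate 3.

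**Figure D5:**
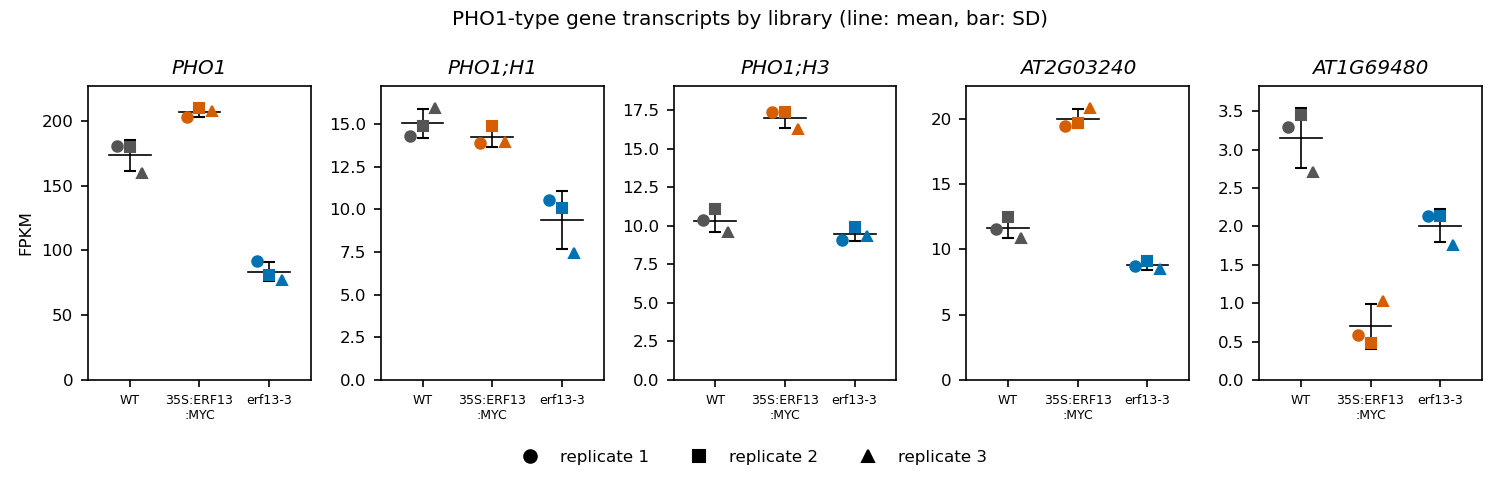
FPKM of 5 PHO1-type genes by library, with mean (line) and SD (bar) of 3 libraries per genotype. PHO1, AT1G14040 (PHO1;H3) and AT2G03240 are highest in 35S:ERF13:MYC, whereas AT1G69480 is lowest there, at 0.70 FPKM on average.

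Genes for phosphate transport across other membranes were read from the same fit. Of 14 tested organelle and vacuole phosphate and glycerol-3-phosphate transporter genes 0 were higher and 4 lower in 35S:ERF13:MYC than in WT, or 0 and 3 without WT replicate 3. Of all genes 13.8% were higher and 17.7% lower, or 9.64% and 15.8% without that library. PHT3;2 (AT3G48850), a mitochondrial carrier gene, was lower, with 10, 5 and 23 counts in WT and 1, 0 and 1 in 35S:ERF13:MYC (adjusted p = 0.0036 by edgeR), and the plastid carrier genes PHT4;1 (AT2G29650) and PHT4;5 (AT5G20380) were lower at -0.45 each. In erf13-3, 2 were higher and 2 lower, or 4 and 2 without that library. Of all genes 13.6% were higher and 13.7% lower, or 14.0% and 13.4% without it. The plastid transporter gene PHT2;1 (AT3G26570) was higher at 1.37, and AT1G63010, annotated as a carrier with an SPX domain, was lower at -0.93. G3Pp1 was lower at -1.44, or -0.86 without WT replicate 3. Between the lines 5 were higher and 1 lower in erf13-3, against 21.1% and 17.6% of all genes.

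Among 16 genes that act on the transporters or their transcripts, 1 was higher and 7 lower in 35S:ERF13:MYC, or 0 and 6 without WT replicate 3. Of all genes 13.8% were higher and 17.7% lower, or 9.64% and 15.8% without that library. WRKY75 was lower at -1.52, WRKY45, an activator of PHT1;1, at -1.13 and WRKY6, a repressor of PHO1, at -0.52. In erf13-3, 0 were higher and 10 lower, or 0 and 7 without that library, against 13.6% and 13.7% of all genes, or 14.0% and 13.4%. SPX1 missed the threshold with the replicate block (adjusted p = 0.0503, against 0.036 without it, by edgeR). WRKY75 was lower at -2.34, PHO2 at -1.36 and NLA at -0.76. Between the lines 2 were higher and 4 lower in erf13-3, against 21.1% and 17.6% of all genes, with PHO2 at -1.002, PHR1 at -0.81 and WRKY45 at 0.94.

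Of 15 genes of phosphate scavenging and lipid remodelling, many of which rise with the PHT1 genes in phosphate-starved roots, 0 were higher and 12 lower in 35S:ERF13:MYC, or 0 and 10 without WT replicate 3. The shares of all genes were 13.8% and 17.7%, or 9.64% and 15.8% without that library. The phosphatase gene PAP10 was lower at -0.93, the sulfolipid synthase gene SQD2 at -1.91 and PEPC1, a phosphatase gene, at -6.88, the last 2 at -1.22 and -4.70 without that library. PEPC1 had 5, 0 and 2 counts in 35S:ERF13:MYC against 59, 62 and 661 in WT. In erf13-3, 1 was higher and 9 lower, or 2 and 8 without that library, against 13.6% and 13.7% of all genes, or 14.0% and 13.4%. PAP10 was lower at -0.75, PAP17 at -1.20 and PS2 at -2.14, or -0.73 and -1.06 for the last 2 without WT replicate 3. Between the lines 2 were higher and 0 lower in erf13-3, the ribonuclease gene RNS1 at 2.54 and the galactolipid synthase gene MGD2 at 1.76, and without WT replicate 3 the counts were 4 and 1. The shares of all genes were 21.1% and 17.6%, or 24.0% and 19.7% without that library.

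The genes whose pattern over the 9 libraries came nearest to that of a transporter gene were found by the root mean square difference of centred log2 CPM among 18525 genes. For PHT1;1, whose own log2 CPM had an SD of 0.96, they were AT2G32190 (0.198), AT4G30670 (0.207) and AT4G23870 (0.223). For PHT1;4 (SD 0.65) they were GDU2 (0.204), AT2G18370 (0.227) and LSU1 (0.230). PHO1 (SD 0.64) had closer neighbours, GAD2 (0.0861), CYP72A15 (0.102) and AT1G77680 (0.105). For PHO1;H1 (SD 0.40) they were ABF2 (0.0933), PUB9 (0.106) and AT5G48800 (0.111).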

How the data were processed

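RNA was measured in 9 libraries, 3 per genotype. Per the file headers, the authors gave every library's genes an expected count, which is an estimate and need not be whole, and a value in FPKM. A gene not listed in a library was taken as 0. Per line, the authors also deposited a table against WT that holds a log2 ratio and a score named Probability, used here only for the ratios. Aligner, counting software, strand and build: not given in the sources used here. Of 2547 genes with coordinates in the deposited tables, 2547 lay within the RefSeq TAIR10.1 gene on the same strand, and sequences and coordinates printed are from TAIR10.1.

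Expected counts were rounded and tested with edgeR 4.0.16 (R 4.3.3): filterByExpr with a minimum count of 10, which kept 19714 of 24140 genes and all 8 transporter genes, TMM scaling (factors 0.895 to 1.06), and a single quasi-likelihood fit of all 9 libraries with a mean per genotype. The threshold was an adjusted p (Benjamini-Hochberg, over all genes tested) under 0.05. SE is the log2 fold change over the square root of its F statistic. The script was tested on simulated data. Ratios on 1 to 3 counts carry an exact 95% interval, and a group at 0 is set at a floor of 3 counts per library, and both cover counting error only. Alternatives were DESeq2 1.42.0, its size factors in edgeR, limma 3.58.1 on log2(FPKM + 0.1) and log2(FPKM + 1), no low count filter, a fit of only the genotypes compared, a replicate block, and each library left out. The labels give no pairing. Deviations of same-numbered libraries of WT and erf13-3 correlated positively (0.207, 0.278 and 0.492). Over all groups, a library matched its own number best in 7 of 18 cases, so a pairing is not shown. Values with the block are an alternative only, printed for erf13-3 against WT where they change a call. No pair of libraries was a duplicate (chi-square per degree of freedom 2.31 or more). The 8 genes and the lists of other genes were chosen with earlier results of these data known. All 8 were named, as were the 3 called genes with the smallest p of each other list in a comparison.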

Additional observations from a re-analysis of the deposited data

Results flagged for a closer look

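For 6 of the 8 genes the responses of both lines, each against the same WT libraries, differed from each other by the edgeR test of erf13-3 against 35S:ERF13:MYC, which called 38.7% of all genes. The log2 difference was 2.00 for PHT1;1 (adjusted p = 0.00012), and -1.34 for PHO1 (adjusted p = 7.8e-08) and -0.64 for PHO1;H1 (adjusted p = 0.00073), each with no overlap between the libraries of the lines. For PHT1;8, PHT1;9 and PHT1;2 the fitted log2 differences were 5.11 (adjusted p = 0.0061), 6.71 (0.0076) and 4.49 (0.040), which rest on 1, 0 and 2 counts in 35S:ERF13:MYC and depend on the prior count. The ratio of 47.3, the bound of 4.43 and the ratio of 26.6 of counts are the values to read for these 3 genes. The ratio of PHT1;2 also depends on how reads shared with PHT1;1 were split. The call of PHT1;2 held in 9 of the 16 alternatives that tested it, and it was not tested when only the lines were fitted.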

How the results depend on the processing

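Over 18 kinds of alternative, single-gene results of the 8 genes kept direction and side of the threshold in 376 cases, passed it anew in 9, lost it in 23 and changed sign in 9. PHO1 and PHO1;H1 kept their calls in both comparisons of erf13-3, and PHT1;1 in both comparisons of 35S:ERF13:MYC, in 18 of 18. For PHT1;1 these include the fit with its counts summed with those of PHT1;2, PHT1;3 and PHT1;6. The sign changes were all in results that were not called. Leaving out 1 library each, the log2 fold change of erf13-3 against WT ran from -1.42 to 0.83 for PHT1;2, from -0.57 to 0.42 for PHT1;4, from -2.61 to 0.054 for PHT1;5 and from -0.87 to 0.56 for PHT1;9, and that of 35S:ERF13:MYC from -1.40 to 1.33 for PHT1;5. The value above 0 was each time the one without WT replicate 3. With limma, PHT1;4 in erf13-3 was 0.046 on log2(FPKM + 0.1) and 0.043 on log2(FPKM + 1), with or without a filter, and PHT1;5 in 35S:ERF13:MYC was 0.091 on log2(FPKM + 0.1). The cause was not tested. In 35S:ERF13:MYC, 3 of 7 transporter genes tested were called with limma on log2(FPKM + 0.1) (30.5% of all genes), 2 of 7 on log2(FPKM + 1) with a filter (32.9%) and 3 of 6 when only both genotypes were fitted (30.6%). PHT1;9 did not pass the filter of any of these 3 fits, nor PHT1;2 that of the last. Among the low genes PHT1;2 was lost in that comparison on log2(FPKM + 1) (adjusted p = 0.072 with and 0.10 without a filter), which understates changes of low genes. PHT1;4 was lost there with DESeq2 (adjusted p = 0.059) and with each limma fit, and PHO1 passed the threshold with limma on log2(FPKM + 1) and no filter (0.25, adjusted p = 0.04997). In erf13-3 against WT, PHT1;8 was lost with each limma fit. There 2 of 7 transporter genes tested were called on log2(FPKM + 0.1) (30.5% of all genes). On log2(FPKM + 1), 2 of 7 were called with a filter (32.3%) and 2 of 8 without (27.6%). With limma on log2(FPKM + 0.1) the median of all genes moved from 0.02 to 0.13 in 35S:ERF13:MYC and to 0.15 in erf13-3, and the share of calls that were higher from 43.7% to 58.6% and from 49.97% to 70.5%. These fits differ from edgeR's in unit, scaling, test and filter at once, and which of these moved the values was not tested. Leaving out 1 library each, 3903 to 6725 genes were called in 35S:ERF13:MYC, the lowest without its replicate 2, 4066 to 5441 in erf13-3 and 6081 to 8692 between the lines. The PHT1;1 share of PHT1 transcript was 68.8% in WT library 3, 63.6% in 35S:ERF13:MYC library 1 and 82.8% in erf13-3 library 3.

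Deviations of same-numbered libraries of WT and erf13-3 correlated positively. For 35S:ERF13:MYC the correlations ran from -0.296 to 0.106 with WT and from -0.139 to 0.181 with erf13-3. Matching each library to the other groups, the best correlation was with its own number in 7 of 18 cases. With 3 candidates per match, this is close to what arises without any pairing. With the replicate number as a block 6523, 5494 and 8008 genes were called in 35S:ERF13:MYC, in erf13-3 and between the lines, and 5, 3 and 6 of the 8 transporter genes. In erf13-3 against WT the block changed the calls of PRP1, PRP3, CASP1 and SPX1 and no other call among the genes of the lists. In 35S:ERF13:MYC it added LRX1 and between the lines PEPC1 and SQD2.

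With 3 libraries per genotype and counts under 100 for PHT1;2, PHT1;8 and PHT1;9 in any library, the size of their change is known only roughly, and the intervals given cover counting error and not the spread between libraries.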
